A study of Mus musculus with 12 samples.

Results

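Klf4 was silenced with a small interfering RNA (siKlf4) in cultured PDGFR-β+ cells of the mouse lung, and the transcriptome was compared with that of the same cells given scrambled RNA (Scr). The comparison covers 6 of the 12 bulk RNA-seq libraries of the study, 3 of siKlf4-treated and 3 of Scr-treated cells. All 6 columns of the PDGFR-β+ expression table entered, and 13694 of its 52636 genes had a mean of at least 1 TPM (transcripts per 1000000, in which reads are set against transcript length and every library sums to 1 fixed total) and were tested. The other 6 libraries hold the same pair of treatments in airway smooth muscle cells (SMCs) and were used only to test where the response of PDGFR-β+ cells differed. The labels give both groups as lung PDGFR-β+ cells of 12-week-old C57BL/6 mice, with the genotype WT for Scr and Klf4 knockdown for siKlf4. According to the study's methods, both groups were reporter-positive (Zs+) cells sorted from lungs after tamoxifen induction, the animals being Pdgfrb-CreERT2, ROSA26R(Zs/+), then grown on gelatin and passaged before use, so that Scr and siKlf4 cells alike carry the reporter and have left the lung. In this model the Pdgfrb promoter drives Cre, and the reporter marks any cell in which that promoter was active at induction, fibroblasts and pericytes among them.

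KLF4 is a zinc-finger transcription factor of the Krüppel-like family that binds CACCC-type and GC-rich sites and can either raise or lower transcription. It is best known as a pluripotency factor, and in smooth muscle and pericytes it accompanies loss of the contractile state. PDGFR-β is the receptor through which PDGF ligands recruit and expand pericytes and fibroblasts, the cells that lay down collagen and respond to TGF-β in the lung. Type I interferons are a separate system: sensors of foreign or misplaced nucleic acid induce interferon-β, which signals through its receptor, JAK kinases and a complex that holds STAT2 and IRF9 to genes that carry an interferon-stimulated response element.

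The labelled cell type was checked against its markers. Pdgfrb itself measured 474, 423 and 444 TPM in the 3 Scr libraries and 397, 304 and 317 TPM in the 3 siKlf4 libraries. Among pericyte markers, Cspg4 measured 24.9, 35.1 and 20.6 TPM and Notch3 8.62, 7.45 and 7.11 TPM with Scr, Rgs5 stayed below 3 TPM, Kcnj8 and Abcc9 below 1 TPM in every library, and Higd1b was listed at 0. The fibroblast genes Pdgfra (180.3, 151 and 175 TPM) and Col1a1 (2103, 1783 and 1925 TPM) and the smooth muscle gene Myh11 (22.995, 20.5 and 18.8 TPM) were present with Scr. The leukocyte gene Ptprc stayed below 0.3 TPM and the macrophage gene Adgre1 at or near 0, Cdh5 of endothelium was below 0.1 TPM, and Epcam and Sftpc of epithelium were listed at 0 in all 6 libraries. The fibroblast genes Pdgfra and Col1a1 were thus abundant, and several defining pericyte genes were at or near 0. In the full marker lists, 8 of 32 lung fibroblast and 8 of 20 pericyte markers stayed under a mean of 1 TPM. The pericyte marker Ndufa4l2 measured 45.3, 34.01 and 42.5 TPM with Scr. In a bulk sample, fewer cells of a type and less RNA per cell cannot be told apart.

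Klf4 (ENSMUSG00000003032.8, chr4:55527143-55532466, minus strand, GRCm38) fell from 144, 146 and 134 TPM in the Scr libraries to 12.3, 13.8 and 12.8 TPM in the siKlf4 libraries, and the 3 values of each group lay close together. In all, 5559 genes passed an adjusted p of 0.05 (limma on log2(TPM + 1), Benjamini-Hochberg), 3461 of them higher and 2098 lower with siKlf4. These are 25.3% and 15.3% of the genes tested, the background for every list that follows. A change of at least 2-fold was seen for 557 higher and 401 lower genes, 4.07% and 2.93% of those tested, and 53.8% of all genes had groups that did not overlap. The median log2 fold change of all genes was 0.10. When libraries were instead scaled by the median ratio of their genes, the median moved by -0.10 and the split became 2639 higher (19.3%) against 2977 lower (21.7%), with no gene called in opposite directions. The first principal component, with 70.3% of the variance, separated the groups, and the second, with 9.0%, set Scr replicate 2 apart from the other libraries. Sequencing depth cannot be read from TPM. The study's methods state an intended yield per sample, but the depth that each library reached is unknown here. The libraries listed 21023 to 21780 genes above 0 TPM. Fold changes on the log2(TPM + 1) scale understate the change of genes with low values. Where a gene is given by 2 sets of TPM values, those of Scr replicates 1 to 3 come first and those of siKlf4 replicates 1 to 3 second, and a number on its own in brackets is the log2 fold change.

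**Figure D1:**
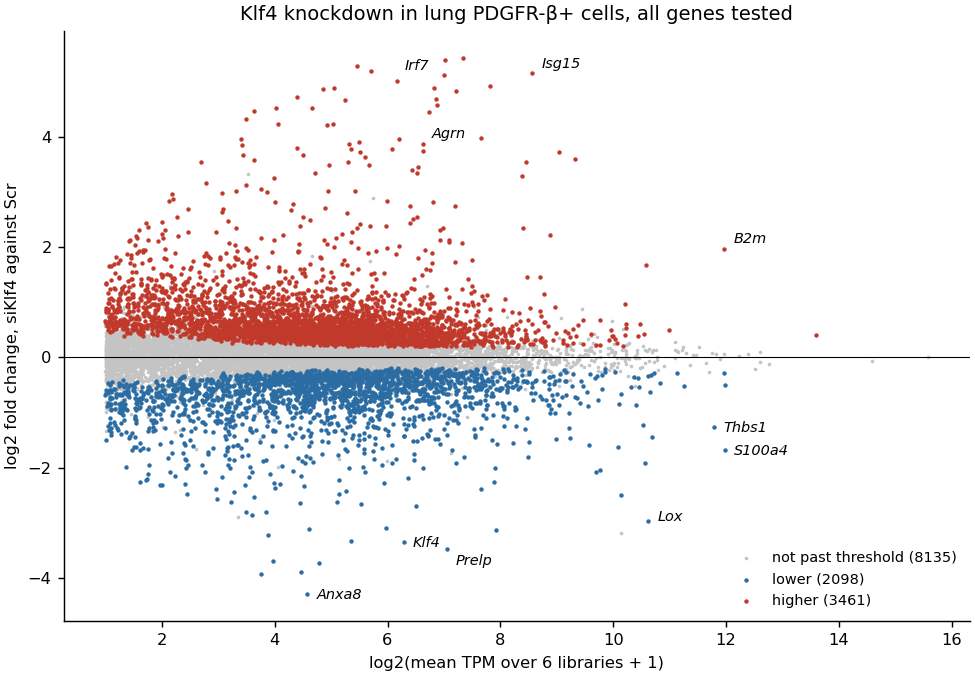
Each point is 1 of the 13694 genes tested, with the log2 of its mean TPM over the 6 libraries plus 1 on the x axis and the log2 fold change of siKlf4 against Scr on the y axis. Red points (3461) were higher and blue points (2098) lower at an adjusted p under 0.05, grey points did not pass. The upper edge of the plot holds interferon genes such as Isg15 and Irf7, and the lower edge holds Anxa8, Prelp, Klf4 and Lox.

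The most raised genes were largely those of the interferon response. Besides the fall of Klf4, the groups differ in the RNA they were given, and the part of that RNA itself was not tested. Of the 10 largest rises, ranked by log2 fold change among genes past the threshold whose groups did not overlap and leaving out clone and model names, 8 were members of the interferon lists, and the other two were the chemokine genes Ccl5 and Cxcl10. Across the interferon lists, 152 genes were tested, of which 129 were higher and 5 lower, with a median log2 fold change of 2.04 against 0.10 for all genes. The summed level of all members rose from between 9692 and 11181 TPM in the Scr libraries to between 28564 and 30423 TPM in the siKlf4 libraries. Interferon genes made up 113 of the 557 genes raised at least 2-fold. The minimum mean was taken over both groups together. Members with Scr means under 1 TPM, such as Ifnb1, Psmb9 and Cmpk2, thus entered these counts through the siKlf4 libraries. For such members the filter favoured a call of higher.

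To show what these genes share beside their expression, the RefSeq sequence upstream of their transcription start was searched for GAAA and GAAA with any 2 bases between them, the core of the interferon-stimulated response element, on both strands and with overlapping matches allowed. The windows, from 250 bases before to 50 after each start, covered 27025 gene symbols, 3.99% of which had a match. The match was present in 10 of the 11 interferon-inducible GTPase genes that had a window, in 26 of 56 antiviral effector genes, in 5 of 20 genes of MHC class I presentation and in 4 of 14 sensor genes. Among receptors and transducers 2 of 13 held it, and among interferon regulatory factors 1 of 11. It was also present in 11 of 20 interferon ligand genes with a window, though 14 of the 21 ligand genes were listed at 0 in every library. Outside the interferon lists, 5 of 27 proteoglycan, matricellular and elastic fibre genes held it (18.5%). Among genes raised at least 2-fold with a window it was present in 18.3% (74 of 404), and among genes lowered at least 2-fold in 2.70% (8 of 296). The sequence CCACACCC, of the CACCC type bound by Krüppel-like factors, was found in 4.09% of all windows, in 6.19% of genes raised and in 7.09% of genes lowered at least 2-fold (25 of 404 and 21 of 296). Among the interferon lists, CCACACCC was present in 8 of 56 antiviral effector genes (14.3%). It was also in 2 of 20 ligand genes, 1 of 11 GTPase genes and 1 of 11 regulatory factor genes. No MHC class I, sensor, receptor or transducer gene with a window held it. A match describes the letters in this window and is not evidence of binding. Upstream sequences of 4 of these genes, an effector with overlapping matches, a second effector, a GTPase and the light chain of MHC class I, are given here 5′ to 3′ as the last 200 bases before the start in build GRCm38.p6, with matches in capitals. Matches on the other strand read TTTC, 2 bases and TTTC.
Isg15, chr4:156200819-156201018, minus strand: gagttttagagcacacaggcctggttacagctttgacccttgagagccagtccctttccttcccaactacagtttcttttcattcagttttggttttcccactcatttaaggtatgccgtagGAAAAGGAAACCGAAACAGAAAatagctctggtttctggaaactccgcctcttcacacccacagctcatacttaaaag
Ifit1, chr19:34640689-34640888, plus strand: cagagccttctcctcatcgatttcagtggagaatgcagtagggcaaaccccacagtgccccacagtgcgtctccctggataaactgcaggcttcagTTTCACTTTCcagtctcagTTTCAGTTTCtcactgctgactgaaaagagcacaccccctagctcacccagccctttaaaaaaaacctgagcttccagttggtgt
Gbp3, chr3:142559844-142560043, plus strand: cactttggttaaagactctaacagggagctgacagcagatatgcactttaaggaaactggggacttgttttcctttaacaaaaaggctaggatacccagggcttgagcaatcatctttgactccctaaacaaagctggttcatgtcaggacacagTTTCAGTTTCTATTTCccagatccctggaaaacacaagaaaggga
B2m, chr2:122147487-122147686, plus strand: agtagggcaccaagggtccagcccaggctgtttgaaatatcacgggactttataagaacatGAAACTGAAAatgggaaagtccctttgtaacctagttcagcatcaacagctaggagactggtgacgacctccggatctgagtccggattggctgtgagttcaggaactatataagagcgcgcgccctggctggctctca

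The capitals begin 78, 72 and 66 bases before the start in Isg15, 104 and 85 in Ifit1, 45 and 39 in Gbp3, and 139 in B2m. All of these genes rose. They were picked by name with earlier results of these data known, so their shared rise does not test the match. Cxcl10, picked with them, gave no sequence with a match and is not shown. Isg15, a ubiquitin-like modifier, measured 19.8, 12.7 and 29.3 TPM with Scr, against 736, 728 and 739 TPM with siKlf4 (log2 fold change 5.17, standard error 0.25, adjusted p = 1.3e-05). Ifit1, which binds viral RNA ends, went from 10.3, 7.59 and 29.04 to 449.6, 438 and 414 TPM (4.93, adjusted p = 0.00012). Gbp3, a guanylate-binding protein, went from 8.54, 5.49 and 12.4 to 220.2, 239.8 and 212 TPM (4.58, adjusted p = 1.5e-05). In each of these 3 genes the Scr library with the highest level, replicate 3, stayed far under the lowest siKlf4 library.

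At the head of the pathway, Ifnb1, which encodes interferon-β, was listed at 0 in all 3 Scr libraries and measured 5.19, 3.71 and 3.16 TPM in the siKlf4 libraries. It was the only one of the 21 interferon ligand genes to reach a mean of 1 TPM, and it did so through the siKlf4 libraries alone. Ifna4 was listed at 0 with Scr and measured 1.09, 0.526 and 0.899 TPM with siKlf4, while Ifng, Ifnl2 and Ifnl3 were listed at 0 in every library, as were 14 of the 21 ligand genes. The receptor genes Ifnar1 (51.9, 47.9 and 49.1 TPM with Scr, 45.1, 43.8 and 43.5 TPM with siKlf4) and Ifnar2 (52.5, 45.6 and 53.4 against 48.3, 41.4 and 39.6 TPM) did not pass the threshold (adjusted p = 0.092 and 0.118). With median-ratio scaling both passed as lower, at log2 fold changes of -0.27 and -0.33. The receptor subunit gene Ifngr2 was lower, with 73.8, 72.5 and 73.3 against 62.4, 60.2 and 59.5 TPM (-0.27, adjusted p = 0.012).

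Of 15 genes for receptors, transducers and their inhibitors, 7 were higher and 1 lower, with 4 lower under median-ratio scaling. Stat2 went from 37.2, 36.96 and 47.5 to 206, 221 and 203 TPM (2.35, standard error 0.11, adjusted p = 1.1e-05). Irf9, its partner in the complex, measured 30.5, 22.1 and 35.1 TPM with Scr, against 74.2, 86.8 and 76.6 TPM with siKlf4 (1.43). Both genes encode parts of the factor that carries the type I signal to the nucleus, and neither had overlapping groups. Jak2 rose (0.81, 70.5 ± 2.40 against 124 ± 3.88 TPM, SD, n = 3), whereas Jak1 and Tyk2 did not pass (log2 fold changes 0.19 and 0.10, adjusted p = 0.050 and 0.534). Jak1 passed as higher with a minimum mean of 5 TPM. Negative regulators were among the raised genes. Usp18 (chr6:121245906-121270917, plus strand), which removes ISG15 and blocks the receptor, was the most raised gene past the threshold in these cells, with 4.51, 4.84 and 11.1 TPM in Scr and 319, 321 and 306 TPM in siKlf4 libraries (5.44, standard error 0.27, adjusted p = 1.5e-05). Socs1 rose from 3.10 ± 0.768 to 9.82 ± 1.57 TPM (1.41), while Socs3 measured 29.4 ± 4.85 against 21.9 ± 3.52 TPM and did not pass (adjusted p = 0.070). Socs3 was called lower with median-ratio scaling (-0.51, adjusted p = 0.031), in a single fit of both cell types and without Scr replicate 2 or siKlf4 replicate 1.

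Of the 9 interferon regulatory factor genes and binding partners tested, 7 were higher and none lower. Irf7, the factor that amplifies type I interferon production, went from 4.87, 5.08 and 8.99 to 293, 232 and 221 TPM (5.13, standard error 0.21, adjusted p = 8.5e-06). Irf1 measured 22.7, 19.3 and 20.7 TPM with Scr, against 64.5, 61.4 and 32.5 TPM with siKlf4 (1.24, adjusted p = 0.0059), and siKlf4 replicate 3 was the lowest of its group. Irf3, which is present before infection and is switched on by phosphorylation, measured 39.5, 37.1 and 38.95 against 40.4, 47.4 and 43.9 TPM and did not pass (adjusted p = 0.117).

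Sensors of nucleic acid rose in 13 of 18 tested members, and 1, the adaptor gene Mavs, was lower (38.6, 39.9 and 33.3 against 31.5, 29.1 and 29.4 TPM, log2 fold change -0.30, adjusted p = 0.033), a call that was lost with no filter on low values and without Scr replicate 1 or 2 or siKlf4 replicate 2 or 3 (adjusted p up to 0.101). Ifih1, which encodes the RNA sensor MDA5, went from 8.02, 4.80 and 10.1 to 95.2, 95.8 and 87.5 TPM (3.49). Ddx58, which encodes RIG-I, went from 48.9, 40.6 and 60.5 to 222, 207 and 229 TPM (2.13). The interferon-inducible Zbp1, a sensor of Z-form nucleic acid, rose by 3.96 and Dhx58 by 3.49 on the log2 scale. Rises were smaller for sensors of DNA and their adaptor: Mb21d1, which encodes cGAS, measured 4.23 ± 0.338 against 9.20 ± 2.05 TPM (0.95), and Tmem173, which encodes STING, 39.9 ± 1.12 against 76.1 ± 1.49 TPM (0.91). Tlr3, the endosomal receptor for double-stranded RNA, measured 13.96, 13.4 and 16.1 TPM with Scr, against 44.2, 36.9 and 39.1 TPM with siKlf4 (1.41). The kinase gene Tbk1 did not pass (0.16, adjusted p = 0.275).

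Antiviral effector genes moved almost as 1 block. Of 71 tested, 66 were higher, 63 of them at least 2-fold, and their median log2 fold change was 2.44. The lower member was Ifi27, with 187, 159.8 and 189.8 TPM in Scr and 100.3, 92.3 and 98.01 TPM in siKlf4 libraries (-0.88, adjusted p = 0.00027). Bst2, which tethers budding virus to the cell surface, went from 94.4, 71.9 and 128 to 1239, 1138 and 1141 TPM, a 11.97-fold ratio of the means. Ifitm3, a membrane protein that blocks viral fusion, was already abundant at 748, 665 and 781 TPM with Scr and reached 2349.8, 2267 and 2358 TPM with siKlf4. Rsad2, which encodes viperin, rose from 0.743, 0.622 and 2.52 to 58.5, 68.1 and 62.1 TPM, and its neighbour in function, the nucleotide kinase gene Cmpk2, from 0.739, 0.680 and 1.36 to 48.95, 63.8 and 52.01 TPM. The interferon-inducible GTPases, which attack the membranes of intracellular pathogens, rose in all 16 tested members, each at least 2-fold, with a median of 3.02 and a summed level 11.9-fold higher. Iigp1 went from 4.73, 3.77 and 13.6 to 222, 219.9 and 209 TPM and Irgm1 from 55.99, 51.2 and 77.9 to 611, 629.6 and 574 TPM. Members of the Ifit, Gbp, Tgtp, Oas, Slfn, Trim and H2 families have near-identical copies, and reads may have been split between them, so that the level of a single member is less certain than that of its family.

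**Figure D2:**
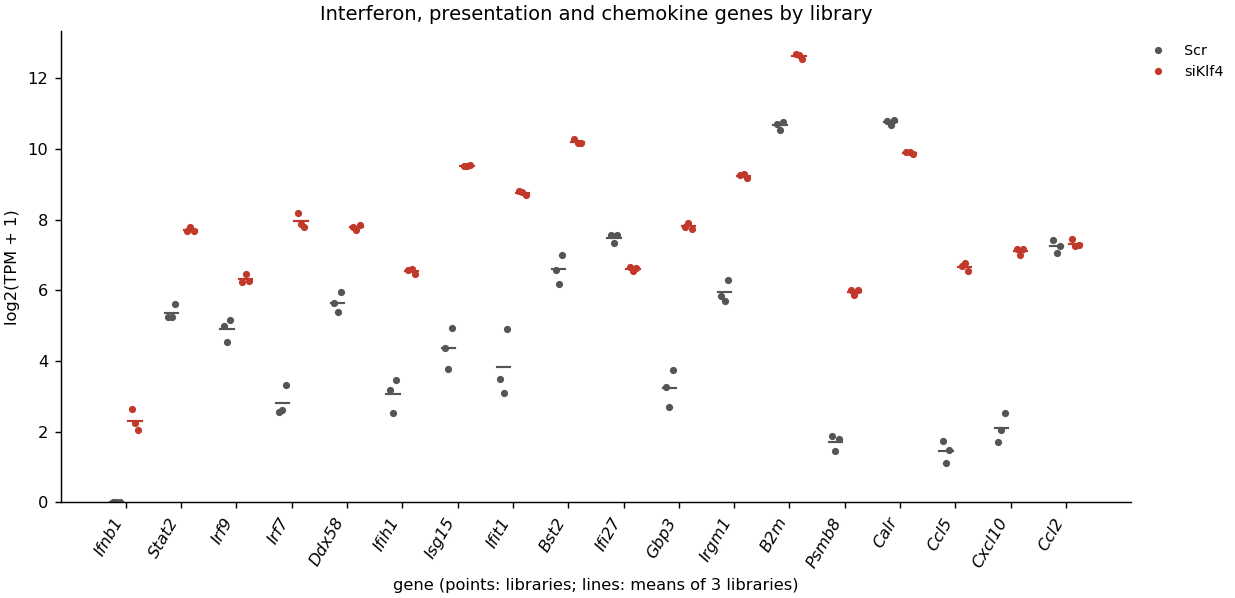
Points are the log2(TPM + 1) values of single libraries, grey for Scr and red for siKlf4, and short lines are the means of 3 libraries, for genes of interferon signalling, sensing, effector function, MHC class I presentation and chemokines. The groups are apart in every gene but Ccl2, with Ifi27 and Calr lower and the others higher with siKlf4.

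MHC class I presentation loads peptides from the proteasome onto heavy chains in the endoplasmic reticulum (ER). Of 24 genes, 21 were higher and 2 lower, and the median log2 fold change was 1.77. B2m, the shared light chain, had the largest gain in TPM of any gene past the threshold, from 1674, 1473 and 1728 to 6621, 6498 and 5996 TPM (1.97, standard error 0.085, adjusted p = 8.9e-06). The heavy chain gene H2-D1 went from 114, 104.5 and 110.3 to 604, 584 and 505 TPM (2.35). Immunoproteasome subunits had lower levels and steeper rises, with Psmb8 at 2.68, 1.74 and 2.48 TPM with Scr, against 63.3, 57.3 and 63.1 TPM with siKlf4 (4.25) and Psmb9 at 0.405, 0.323 and 0.443 against 8.55, 5.50 and 7.66 TPM (2.55). Nlrc5, the transactivator of MHC class I genes, rose from 4.62, 4.74 and 3.53 to 35.6, 36.3 and 26.9 TPM (2.68). Calr (1781, 1641 and 1808 TPM with Scr, against 971, 962 and 918 TPM with siKlf4) and Canx (770.2, 649 and 769 against 498, 512 and 506 TPM), general folding chaperones, were the members that fell.

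The interferon response was then compared with that of SMCs, in which Klf4 fell less (log2 fold change -2.16 against -3.35, difference -1.19, standard error 0.19, adjusted p = 0.00069). The test was the interaction term over all 12 libraries, and genes had to reach the 1 TPM mean in each cell type. Over all 13032 genes so tested, 18.5% had a significantly higher and 14.5% a significantly lower log2 fold change in PDGFR-β+ cells. Among 146 interferon genes, 113 had a higher value in PDGFR-β+ cells, 5 a lower one, and for 28 the difference did not pass, with a median difference of 1.42 against 0.08 for all genes. In SMCs on their own, 84 of 147 interferon genes were higher and 9 lower (background 15.6% and 12.9%), with a median log2 fold change of 0.51. Isg15 in SMCs measured 24.5, 55.8 and 66.7 TPM with Scr, against 224, 219.5 and 247 TPM with siKlf4, and its log2 fold change was lower by 2.84 (standard error 0.46, adjusted p = 0.0008) than in PDGFR-β+ cells. Irf7 in SMCs went from 7.94, 25.7 and 28.9 to 60.6, 71.5 and 85.6 TPM, a difference between the cell types of 3.21 (adjusted p = 0.00096). For each gene the first SMC value of a group comes from a library whose column carries no replicate number. The size of the fall in Klf4 differed between the cell types, and its part in the difference was not tested. By the study's methods the SMCs were purchased primary cells, whereas the PDGFR-β+ cells were sorted from lungs. Those methods name alternative transfection reagents and suppliers of the small interfering RNA without assigning them to a cell type. The part of cell source, reagent or supplier was not tested either.

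**Figure D3:**
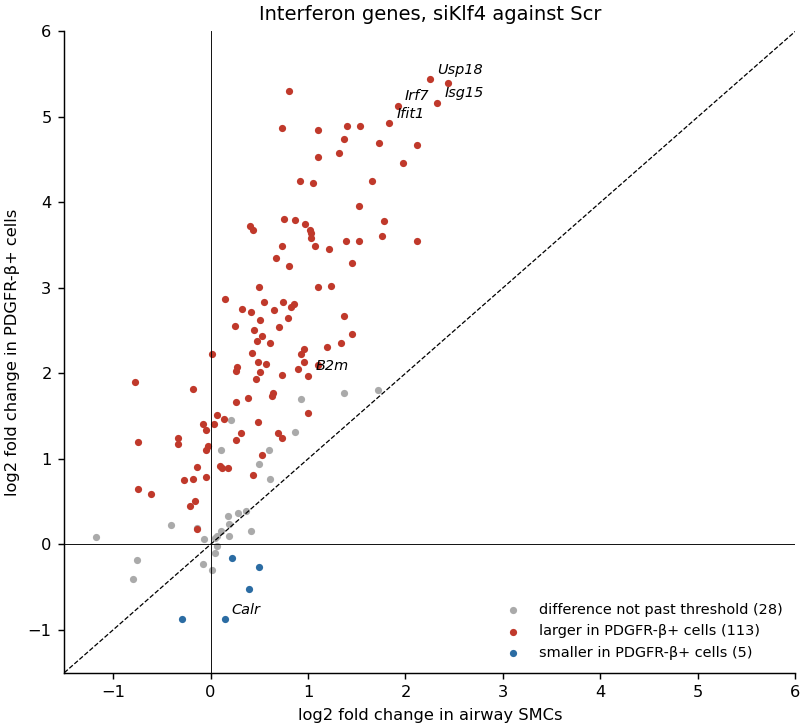
Each point is 1 of 146 interferon genes, with its log2 fold change for siKlf4 against Scr in SMCs on the x axis and in PDGFR-β+ cells on the y axis. The dashed line marks equal change. Red points (113) had a larger and blue points (5) a smaller value in PDGFR-β+ cells by the interaction test, and grey points (28) did not pass.

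Of 59 inflammatory genes tested outside the interferon lists, 15 were higher and 12 lower. These shares, 25.4% and 20.3%, lay near the background of 25.3% and 15.3%. Of 14 chemokine genes tested, 5 were higher and 1 lower. Ccl5, which attracts T cells, went from 2.36, 1.18 and 1.82 to 101.4, 107 and 92.9 TPM (5.21, standard error 0.16, adjusted p = 3.3e-06). The CXCR3 ligand genes Cxcl10 (2.28, 3.14 and 4.76 TPM with Scr, 143, 128 and 144 TPM with siKlf4) and Cxcl9 (0, 0.0672 and 0.112 against 19.1, 20.7 and 21.2 TPM) rose as well. Those are genes that interferons induce, whereas the monocyte chemokine gene Ccl7 was lower (125, 104 and 134 against 90.7, 72.9 and 77.05 TPM, -0.58), a call lost when both cell types were put in a single fit (adjusted p = 0.089), and Ccl2 measured 169, 132 and 152 TPM with Scr, against 172, 150.5 and 154 TPM with siKlf4 (adjusted p = 0.588). Of 12 cytokine genes, 5 were higher and 1 lower. Tslp, an alarmin cytokine that acts on dendritic cells, went from 4.09, 2.90 and 4.21 to 43.95, 48.2 and 48.95 TPM (3.35, adjusted p = 6.7e-06), and Tnfsf11, which encodes RANKL, from 2.80, 3.49 and 3.28 to 15.7, 15.3 and 14.03 TPM (1.94). Csf1, the growth factor of macrophages, was the member that fell, with 1082, 1084 and 1016 TPM in Scr and 732, 734 and 677 TPM in siKlf4 libraries (-0.57). Tnf, Il1a and Il1b were listed at 0 in all 6 libraries.

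Genes of the NF-κB pathway were lower in 6 and higher in 4 of 18 tested members. The adhesion molecule gene Icam1 went from 133, 109.9 and 126 to 60.1, 45.5 and 48.4 TPM (-1.25, adjusted p = 0.00027), and Sod2 from 31.03, 30.3 and 30.99 to 21.1, 18.9 and 19.6 TPM (-0.61). In the other direction, the inhibitor gene Tnfaip3 went from 8.43, 7.89 and 6.29 to 18.4, 22.2 and 18.1 TPM (1.27). Complement genes fell in 4 and rose in 1 of 15 tested members, the lower calls numbering 7 without Scr replicate 2 and 2 without Scr replicate 1 or 3 or siKlf4 replicate 2 or 3. C3, the hub of the cascade, measured 50.4, 27.9 and 50.9 TPM with Scr, against 15.9, 9.31 and 10.5 TPM with siKlf4 (-1.76), and the factor B gene Cfb, an interferon-inducible member, rose from 3.91, 2.35 and 4.40 to 20.004, 13.8 and 10.9 TPM (1.79).

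The TGF-β pathway, the main driver of matrix production by mesenchymal cells, was lowered in most of its called members. Of 27 genes for ligands, latency proteins, receptors and SMADs, 15 were lower and 7 higher, with a median log2 fold change of -0.51. Tgfb1 (chr7:25687002-25705077, plus strand) fell from 48.8, 50.98 and 50.7 to 27.1, 27.1 and 28.2 TPM (-0.85, standard error 0.068, adjusted p = 0.00011), whereas Tgfb3 rose from 201, 196 and 176 to 273, 247 and 258 TPM (0.44, adjusted p = 0.0034). The largest fall was that of Lrrc32, which encodes GARP, a surface anchor of latent TGF-β, with 102, 109 and 90.8 TPM in Scr and 21.6, 20.1 and 18.4 TPM in siKlf4 libraries (-2.27, adjusted p = 8.8e-06). Itgav (121 ± 16.05 against 84.8 ± 8.14 TPM, SD, n = 3) and Itgb6 (1.32, 2.59 and 2.09 against 0.0512, 0 and 0.0965 TPM), which form an integrin that releases TGF-β from latency, were both lower. Levels of Itgb6 were low, and it reached the minimum mean through the Scr libraries alone, which favoured a call of lower. Another integrin β subunit gene, Itgb8, was higher (0.84). The latent binding protein gene Ltbp1 fell from 374, 340.5 and 354 to 185, 167 and 159.9 TPM (-1.06), and the activin subunit gene Inhba from 159.9, 152 and 149 to 59.01, 64.95 and 59.2 TPM (-1.32). The receptor genes Tgfbr1 (27.6, 20.6 and 23.2 against 18.2, 15.7 and 15.04 TPM, -0.51, adjusted p = 0.015) and Tgfbr2 (86.04, 76.1 and 85.7 against 70.8, 67.04 and 67.2 TPM, -0.27, adjusted p = 0.025) fell less, and their calls were lost without siKlf4 replicate 2 or 3 and, for Tgfbr2, also without Scr replicate 1 or 3 and in a single fit of both cell types (adjusted p up to 0.053 and 0.107). Acvr1b, a receptor of activins, went the other way, from 16.3, 15.5 and 15.97 to 37.3, 35.2 and 35.01 TPM (1.12).

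Of 20 TGF-β target genes, 9 were lower and 3 higher. Bhlhe40, which encodes a transcriptional repressor, fell from 73.5, 64.98 and 69.9 to 25.5, 23.3 and 23.5 TPM (-1.49, standard error 0.080, adjusted p = 1.9e-05). The matricellular gene Cyr61 fell as well (-0.34), and Postn measured 482, 348 and 549 TPM with Scr, against 712, 507 and 532 TPM with siKlf4, with overlapping groups. The raised targets were the SMAD repressor gene Skil (0.63), the ubiquitin ligase gene Smurf2 (0.84) and the transcription factor gene Snai2, which went from 73.7, 76.5 and 74.7 to 151, 156 and 144 TPM (0.99). In SMCs, Tgfb1 moved the opposite way, from 19.8, 27.5 and 26.3 to 40.6, 52.4 and 49.1 TPM, giving a cell type difference of -1.78 (standard error 0.17, adjusted p = 2.5e-05).

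Among PDGF genes, Pdgfrb was lower (-0.41, standard error 0.11, adjusted p = 0.022), with siKlf4 replicate 1 the highest of its group and still below every Scr library. This call was lost with no filter on low values and without Scr replicate 1 or 3 or siKlf4 replicate 2 or 3, with the adjusted p reaching 0.075 and the log2 fold change between -0.53 and -0.33 over these and the other alternative settings. Pdgfra measured 180.3, 151 and 175 TPM with Scr, against 199, 169 and 171 TPM with siKlf4 and did not pass (adjusted p = 0.495), and Pdgfb stayed below 0.2 TPM in all libraries. The 5 tested PDGF genes thus held 1 lower and 1 higher call, the latter Pdgfc (19.6, 22.2 and 21.9 against 26.6, 25.7 and 24.9 TPM), whose call was lost when any library but Scr replicate 2 was left out, with median-ratio scaling, with no filter and in a single fit of both cell types (adjusted p up to 0.163).

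Extracellular matrix genes were lower in 64 and higher in 21 of 138 tested members, with a median log2 fold change of -0.35 and a summed level of 54592 to 63989 TPM with Scr and 36488 to 44122 TPM with siKlf4. The classes did not fall alike. Among fibrillar and fibril-associated collagens, 7 of 18 were lower and 2 higher. Col1a1, a chain of type I collagen, fell from 2103, 1783 and 1925 to 1534, 1105 and 1153 TPM (-0.63, standard error 0.13, adjusted p = 0.0082), but its partner Col1a2 measured 1619.5, 1332 and 1494 TPM with Scr, against 1920.3, 1458 and 1481 TPM with siKlf4 (adjusted p = 0.475). Col3a1 had overlapping groups, 683, 412 and 697 TPM with Scr, against 700.2, 443 and 479.7 TPM with siKlf4 (-0.13, adjusted p = 0.691). The 3 chains of type VI collagen fell further, with log2 fold changes of -1.05 for Col6a1, -1.06 for Col6a2 and -1.46 for Col6a3, the last from 143, 162 and 121 to 54.3, 49.2 and 48.2 TPM. Col11a1 rose from 75.9, 63.8 and 78.03 to 112, 102 and 93.2 TPM (0.49).

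Genes for matrix crosslinking and collagen processing fell in 10 and rose in 1 of 21 tested members. Their summed level dropped from a mean of 7268 to 3865 TPM, 0.532 of the Scr value. Lox, which encodes lysyl oxidase, went from 3219, 2049.5 and 3098 to 441, 325 and 295 TPM (-2.97, standard error 0.21, adjusted p = 6e-05), a 7.89-fold lower mean. The mean of Lox alone fell from 2789 to 354 TPM and made up most of the drop in the summed level. Its relatives Loxl1 (279.7 ± 14.7 against 154 ± 20.8 TPM), Loxl2 (58.9, 19.7 and 29.6 against 12.4, 9.29 and 14.8 TPM) and Loxl4 (74.5 ± 5.25 against 18.01 ± 1.06 TPM, SD, n = 3) were lower too, that of Loxl2 losing its call with no filter and without siKlf4 replicate 2 (adjusted p up to 0.065), and Loxl3 was not (0.00, adjusted p = 0.979). Tgm2, which encodes a transglutaminase, went from 176, 149 and 147 to 43.4, 33.1 and 38.5 TPM (-2.01). In SMCs Lox measured 3555, 4424 and 4673 TPM with Scr, against 4121, 3657 and 3951 TPM with siKlf4, a cell type difference of -2.87 (standard error 0.26, adjusted p = 1.9e-05).

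Proteoglycan, matricellular and elastic fibre genes were lower in 19 of 34 tested members, 14 of them at least 2-fold, and higher in 5. Prelp, a small leucine-rich proteoglycan, went from 262, 182 and 282 to 29.6, 16.6 and 16.98 TPM (-3.48, adjusted p = 6.2e-05). Fbln2, a fibulin of elastic fibres and basement membranes, went from 2040.1, 1816 and 1853 to 374, 321 and 315 TPM (-2.50, adjusted p = 5.4e-06), and Wisp2, a matricellular gene, from 483, 393 and 431 to 70.5, 40.7 and 39.1 TPM (-3.14). By amount, Thbs1, which encodes thrombospondin-1, an activator of latent TGF-β, lost the most of this class, from 5429.8, 4395 and 5112 to 2457, 1902 and 1905 TPM (-1.26, adjusted p = 0.00031). The calcification inhibitor gene Mgp fell from 2589, 1761 and 2823 to 806, 573 and 517 TPM (-1.92), and Bgn from 4825, 4531 and 4729 to 3807, 3188 and 3027 TPM (-0.50). The call of Bgn was lost with no filter on low values (adjusted p = 0.069). Fn1, the most abundant member, measured 6818, 5939.8 and 6089 TPM with Scr, against 6171, 5096 and 4988 TPM with siKlf4 and did not pass (-0.22, adjusted p = 0.138), although it was lower with median-ratio scaling (-0.33, adjusted p = 0.031) and without siKlf4 replicate 1. Among the members that rose were Tnc, which encodes the provisional matrix glycoprotein tenascin-C, and the elastic fibre gene Fbln5 (351, 319 and 366 against 595, 507 and 517 TPM, 0.64). Without Scr replicate 1 or 3 or siKlf4 replicate 1 or 3, 3 members rose.

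Basement membrane genes were lower in 10 and higher in 3 of 19 tested members. The linker gene Nid1 fell from 827, 805 and 755 to 401, 399.6 and 377 TPM (-1.02) and the laminin gene Lamb2 from 234, 195 and 203 to 114, 77.9 and 85.1 TPM (-1.20). Against this trend Agrn, which encodes the heparan sulfate proteoglycan agrin (chr4:156165290-156197488, minus strand), rose from 12.1, 10.9 and 11.46 to 214, 166 and 173 TPM (3.88, standard error 0.11, adjusted p = 3.3e-06), the largest rise of any matrix gene tested. It lies downstream of Isg15 on the same strand, the upstream window of Isg15 being chr4:156200819-156201018. Whether transcripts from Isg15 add to the Agrn level was not tested. Among proteases and their inhibitors, 12 of 28 were lower and 9 higher. The 3 tissue inhibitors of metalloproteinases that were tested fell, with Timp1 at 1416, 1518 and 1222 TPM with Scr, against 863, 917 and 839 TPM with siKlf4, Timp2 at 2480.3, 2435 and 2312 against 952, 859.6 and 829 TPM, and Timp3 at 1725, 1453 and 1767 against 613, 489.7 and 492 TPM. The collagenase gene Mmp13 fell (-1.75) and so did Mmp3 (-1.55), whereas Adamts9 (1.91), Plau (0.82) and Mmp16 (0.80) rose. Of 18 integrin subunit genes, 6 were lower and 1 higher. Itgb1, the common β chain, fell from 1691, 1619.5 and 1700.4 to 1202, 1147 and 1092 TPM (-0.54), and the raised subunit was Itgb8 (0.84). Itgb3 measured 2.17, 1.64 and 1.76 TPM with Scr, against 1.12, 1.02 and 0.905 TPM with siKlf4 (-0.50, adjusted p = 0.032), a call lost when any library but Scr replicate 2 was left out and in a single fit of both cell types (adjusted p up to 0.108).

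**Figure D4:**
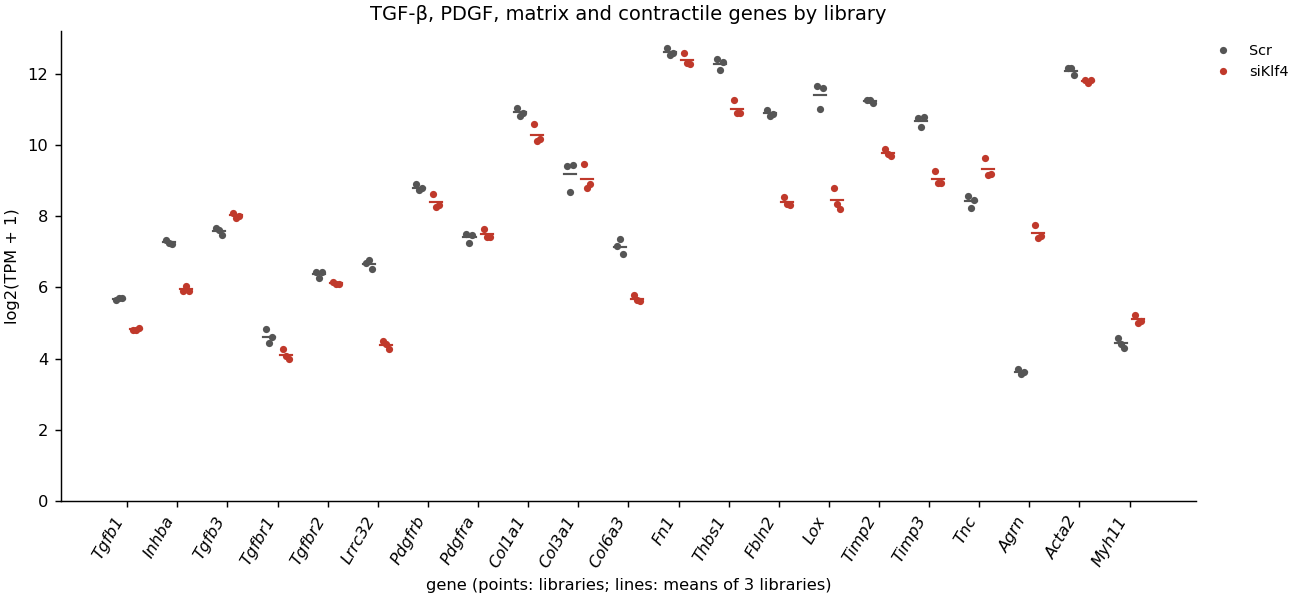
Points are log2(TPM + 1) values of single libraries, grey for Scr and red for siKlf4, with short lines for the means of 3 libraries. Lrrc32, Fbln2, Lox and the Timp genes lie lower with siKlf4, Tgfb3, Tnc, Agrn and Myh11 lie higher, and Pdgfra, Col3a1 and Fn1 overlap between groups.

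Genes of mesenchymal identity moved both ways. Of 28 contractile smooth muscle genes, 10 were higher and 5 lower, and with median-ratio scaling 7 and 6. The abundant members Acta2, which encodes smooth muscle actin (4594, 4545 and 3969 TPM with Scr, 3657, 3454 and 3606 TPM with siKlf4, -0.29), and Tagln (1535, 1623 and 1356 against 988, 993 and 1126 TPM, -0.54) fell, the call of Acta2 being lost with no filter, in a single fit of both cell types and without Scr replicate 1 or 2 or siKlf4 replicate 2 or 3 (adjusted p up to 0.222). Without Scr replicate 1 or siKlf4 replicate 2 or 3 the lower calls of this list numbered 2. The myosin heavy chain gene Myh11 (22.995, 20.5 and 18.8 against 36.7, 31.2 and 32.4 TPM, 0.66), the myosin kinase gene Mylk (1.05) and the factor genes Srf (0.70) and Mkl1 (0.81), which drive contractile genes, rose. Among pericyte markers Ndufa4l2 went from 45.3, 34.01 and 42.5 to 2.94, 1.73 and 0.985 TPM (-3.90, adjusted p = 3.7e-05) and Cspg4, which encodes NG2, from 24.9, 35.1 and 20.6 to 6.22, 6.97 and 4.81 TPM (-1.97), while Mcam rose from 7.64, 12.9 and 6.97 to 18.5, 19.5 and 18.7 TPM (1.01) and Angpt1, a ligand for the endothelial receptor TIE2, from 0.596, 0.513 and 0.568 to 2.60, 3.08 and 2.74 TPM (1.29). In all, 3 of 12 tested pericyte markers were lower and 4 higher, and with median-ratio scaling 4 and 4.

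Lung fibroblast markers were lower in 11 and higher in 3 of 24 tested members. S100a4, also called fibroblast-specific protein, lost more TPM than any other gene past the threshold, from 6066, 6576 and 5860.4 to 1883, 1958 and 1948 TPM (-1.67, standard error 0.072, adjusted p = 8.8e-06). The adventitial fibroblast gene Clec3b fell from 6.75, 2.998 and 6.83 to 0.207, 0.630 and 0 TPM (-2.32). Fgf10, a growth factor for epithelium, rose from 48.2, 41.1 and 46.8 to 73.1, 62.4 and 64.6 TPM (0.55), and the lipid droplet gene Plin2 from 127, 142 and 143 to 229, 279 and 235 TPM (0.84). Mesenchymal transcription factor genes were higher in 22 and lower in 4 of 48 tested members. Osr2 (1.49), the Hedgehog effector gene Gli2 (1.46) and Nr2f1, which went from 35.3, 26.4 and 32.4 to 70.1, 65.6 and 63.5 TPM (1.07), were among the rises, and Prrx2 (-1.03) and the chromatin factor gene Hmga2 (-0.84) among the falls. In the KLF and SP family, 8 of 17 tested relatives of Klf4 were higher and 3 lower, all less than 2-fold, with 5 higher under median-ratio scaling or without siKlf4 replicate 2. Klf5 went from 3.08, 3.35 and 2.88 to 4.79, 6.62 and 5.76 TPM (0.70), Klf9 from 66.7, 59.9 and 71.9 to 36.4, 32.8 and 32.1 TPM (-0.95) and Klf10, an early TGF-β response gene, from 26.1, 36.7 and 27.1 to 12.04, 17.1 and 15.1 TPM (-0.97).

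Outputs of the ERK cascade were higher in 11 and lower in 2 of 17 tested members, with a median of 0.67. The ETS factor gene Etv1 went from 2.59, 2.52 and 4.58 to 8.87, 14.8 and 11.04 TPM (1.58), the phosphatase gene Dusp6 from 20.2, 21.4 and 15.7 to 40.6, 49.3 and 48.2 TPM (1.23), and the feedback inhibitor gene Spry1 from 15.9, 13.2 and 12.9 to 31.8, 30.1 and 28.8 TPM (1.06), whereas Spred2, also an inhibitor, fell from 75.5, 86.1 and 70.2 to 36.9, 37.6 and 35.3 TPM (-1.05). Of 11 Notch pathway genes, 5 were higher, among them Jag1 (20.3, 20.99 and 19.6 against 43.9, 36.5 and 40.5 TPM), Notch1 (5.08, 4.44 and 4.14 against 11.4, 10.7 and 10.3 TPM) and Rbpj (134, 138 and 134 against 268, 292 and 279 TPM), and the target gene Hes1 was lower (-0.59). In the insulin-like growth factor axis, all 6 binding protein genes in the list fell, with Igfbp3 at 60.5, 48.2 and 67.8 TPM with Scr, against 14.1, 8.18 and 7.70 TPM with siKlf4 (-2.48) and Igfbp6 at 156, 147 and 152 against 55.6, 55.7 and 56.1 TPM (-1.43), while the docking protein gene Irs1 rose from 21.1, 21.6 and 19.97 to 67.6, 64.2 and 66.1 TPM (1.61).

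Retinoid genes were lower in 7 of 15 tested members and higher in none (background 15.3% lower and 25.3% higher). Aldh1a2, which makes retinoic acid, fell from 39.3, 28.5 and 38.8 to 9.55, 9.15 and 7.21 TPM (-1.92), the reductase gene Dhrs3 from 62.7, 43.8 and 65.6 to 10.9, 10.8 and 12.2 TPM (-2.23), and the receptor gene Rarb, itself a target of the pathway, from 5.83, 4.22 and 4.49 to 0.731, 1.21 and 0.941 TPM (-1.57). BMP genes were higher in 7 and lower in 5 of 22, and with median-ratio scaling in 6 and 6. The antagonist gene Grem1 went from 2153, 1833 and 2189.8 to 1001, 839 and 800.4 TPM (-1.23) and the receptor gene Bmpr2 from 65.9, 53.6 and 59.4 to 24.1, 21.2 and 19.7 TPM (-1.42), while the target gene Id4 went from 6.70, 8.73 and 6.27 to 25.5, 25.2 and 22.5 TPM (1.64). Wnt genes were higher in 5 and lower in 6 of 24, with Rspo2 among the rises (1.37) and Wnt2 among the falls (-1.31). G protein and RGS genes were higher in 13 and lower in 2 of 27, the falls being Gng12, from 376, 292 and 354 to 133, 114 and 111 TPM, and Gnai3, from 190.4, 174 and 178 to 69.3, 75.8 and 72.3 TPM. With median-ratio scaling 9 were higher and 4 lower. Prostaglandin genes were lower in 6 and higher in 4 of 12, with the synthase gene Ptgis (-0.96), Ptgs2 (-0.55) and the transporter gene Slco2a1 (-2.30) lower. The call of Ptgs2 was lost when both cell types were put in a single fit (adjusted p = 0.170). Among AP-1 and immediate early genes 4 were higher and 3 lower of 19 (with median-ratio scaling 4 and 5), with Nr4a2 raised (1.12) and Egr1 lowered (-0.77).

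Of 44 G2 and M phase genes, 20 were lower and none higher, each less than 2-fold, with a median of -0.36, and 13 were lower without siKlf4 replicate 3. Mki67, the proliferation marker, went from 44.8, 54.95 and 37.7 to 28.1, 32.8 and 26.6 TPM (-0.62, adjusted p = 0.012), and Ect2, which is needed for cytokinesis, from 24.7, 21.2 and 17.99 to 11.7, 12.7 and 11.3 TPM (-0.78). Of 39 S phase genes, 9 were higher and 1 lower, a share of rises near that of all genes, 25.3%. With median-ratio scaling 7 were higher and 3 lower. The replicative helicase genes Mcm4 (44.9, 58.3 and 41.7 against 100.3, 109.9 and 103 TPM, 1.11) and Mcm6 (1.02) rose, and the ribonucleotide reductase gene Rrm2 fell from 67.8, 99.5 and 62.3 to 37.98, 46.1 and 40.1 TPM (-0.84). Ccnd1, the cyclin that starts the cycle, fell from 561, 566 and 548 to 134, 179.7 and 164 TPM (-1.81, standard error 0.11, adjusted p = 2.9e-05), while the inhibitor genes Cdkn1a (703, 665 and 621 against 907, 877 and 891 TPM, 0.43), Cdkn2a (0.59) and Cdkn1c, from 2.13, 1.83 and 2.63 to 8.12, 8.90 and 8.12 TPM (1.56), rose. Targets of p53 were higher in 14 and lower in 2 of 23 tested members. The antiproliferative gene Btg2 went from 42.5, 36.4 and 43.3 to 165, 163 and 155 TPM (1.96, adjusted p = 8.9e-06) and Bbc3, which encodes the cell death protein PUMA, from 13.8, 13.2 and 13.4 to 33.8, 32.1 and 32.2 TPM (1.22).

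Genes of protein folding in the ER were lower in 17 of 24 tested members and higher in none, with a median of -0.52. Hsp90b1 (1407, 1322 and 1526 TPM with Scr, 784, 814 and 756 TPM with siKlf4, -0.85), Hyou1 (135, 135 and 134 against 65.3, 59.7 and 60.5 TPM, -1.11) and Herpud1 (71.3, 68.7 and 66.4 against 35.1, 27.3 and 26.5 TPM, -1.20) were among them. In contrast Ddit3, a stress-induced factor gene of the integrated stress response, rose from 161, 146 and 168 to 285, 301 and 287 TPM (0.87), in a list with 5 members higher and 8 lower of 28 (4 lower without Scr replicate 1, 13 lower with median-ratio scaling). Ribosomal protein genes were higher in 15 and lower in 2 of 82, but with median-ratio scaling 6 and 10, so their direction depended on the scaling, and leaving out 1 library gave between 5 higher (siKlf4 replicate 2) and 24 higher (Scr replicate 2). Lysosomal and autophagy genes were lower in 14 and higher in 1 of 30 (9 lower without siKlf4 replicate 2 or 3), with the galactosidase gene Glb1 at 124, 122 and 119.9 against 76.04, 70.9 and 68.99 TPM (-0.75). Proteasome subunit genes (5 higher, 4 lower of 31) and cytosolic chaperones (3 and 2 of 15) lay below the background, with median-ratio scaling 1 and 9 for proteasome and 2 and 4 for chaperone genes, with Psma1 lower (-0.62) and Hsph1 higher (0.90).

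Sterol synthesis genes were lower in 14 and higher in none of 24 tested members, with a median of -0.52. Idi1, an enzyme gene of the mevalonate route, fell from 38.4, 27.98 and 40.96 to 13.3, 9.30 and 10.5 TPM (-1.61, adjusted p = 0.00043), Nsdhl from 75.6, 66.9 and 71.9 to 35.7, 29.2 and 30.8 TPM (-1.14), and the sterol sensor gene Insig1 from 155, 126 and 153 to 84.8, 78.9 and 78.9 TPM (-0.83). Fatty acid and lipid storage genes were higher in 7 and lower in 6 of 28 (with median-ratio scaling 4 and 10). These shares, 25% and 21.4%, lay near the background of 25.3% and 15.3%. The elongase gene Elovl6 was lower (-1.42) and the lipase gene Lpl higher (1.27). Glycolysis and HIF target genes were lower in 11 and higher in 3 of 35, and with median-ratio scaling in 22 and 1. Without Scr replicate 1 or siKlf4 replicate 2 the lower calls numbered 6. The mitophagy gene Bnip3 went from 235, 177 and 233 to 65.2, 69.8 and 61.1 TPM (-1.69) and the glycolytic enzyme gene Tpi1 from 619, 589.7 and 566 to 321, 319 and 329 TPM (-0.87). Antioxidant genes were higher in 13 and lower in 6 of 30. The NRF2 targets Nqo1 (85.04, 119.8 and 76.6 against 184, 255 and 227 TPM, 1.25), Srxn1 (1.10) and Gsta3 (1.72) rose, and the catalase gene Cat fell from 96.7, 90.7 and 96.3 to 23.5, 24.7 and 22.5 TPM (-1.96, adjusted p = 5.7e-06). Nuclear oxidative phosphorylation genes were called in 4 higher and 2 lower of 72, fewer than the background, and with median-ratio scaling 0 and 14. The list of mitochondrially encoded genes held 4 higher and none lower of 15, with 2 higher under median-ratio scaling.

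**Figure D5:**
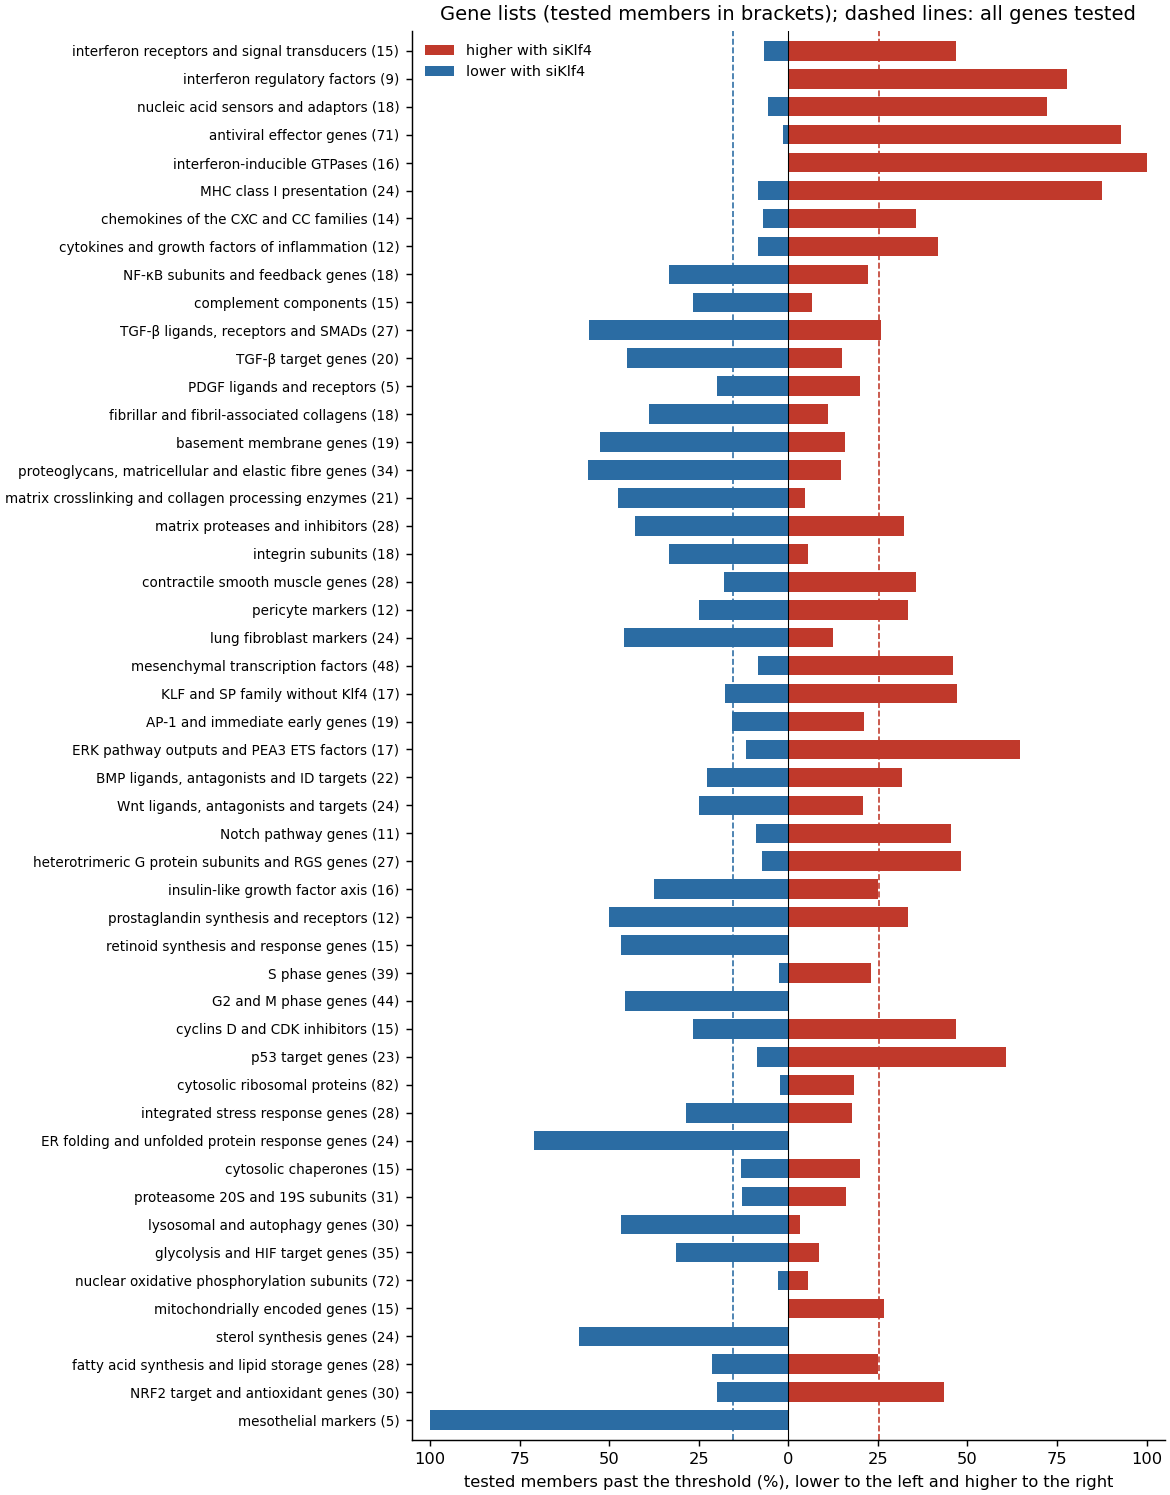
Bars give, for each gene list with at least 5 tested members (number in brackets), the percent of tested members that were higher (red, right) or lower (blue, left) with siKlf4 at an adjusted p under 0.05. Dashed lines mark the same percent over all genes tested, 25.3% higher and 15.3% lower. The interferon-inducible GTPase, antiviral effector, MHC class I, interferon regulatory factor and sensor lists reach furthest to the right, while the list of interferon receptors and signal transducers (46.7% higher) lies behind the ERK and p53 lists. The lists of ER folding, sterol, retinoid and G2 and M phase genes and of mesothelial markers (5 tested) have bars to the left only.

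The genes with the largest falls had no single role. Anxa8, an annexin gene (chr14:34085981-34100571, plus strand), fell most, from 44.1, 43.6 and 45.5 to 1.42, 1.55 and 1.003 TPM (-4.30, standard error 0.12, adjusted p = 3.3e-06), a 33.6-fold lower mean. It was followed by Ndufa4l2, by Gda, which encodes guanine deaminase (61.1, 33.3 and 55.99 against 3.39, 2.19 and 2.71 TPM, -3.73), and by Serpinb6c (27.2, 26.6 and 30.9 against 1.54, 1.003 and 1.21 TPM, -3.70). Aqp1, a water channel gene, went from 25.5, 27.2 and 23.7 to 2.85, 1.23 and 1.66 TPM (-3.22), Nkain4 from 74.4, 72.97 and 72.5 to 7.85, 5.23 and 6.18 TPM (-3.34), and Cd53, a tetraspanin gene known from leukocytes, from 44.4, 33.5 and 50.1 to 4.56, 3.60 and 3.78 TPM (-3.12). Prelp, Klf4 and Wisp2 completed the 10 largest falls.

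Markers of other cell types were read beside these results. Mesothelial markers fell in all 5 tested members of a list of 8, and their summed level went from between 66.5 and 90.7 TPM with Scr to between 25.7 and 31.8 TPM with siKlf4. Msln went from 8.12, 9.34 and 7.29 to 0.970, 0.517 and 0.502 TPM (-2.48, adjusted p = 4.4e-05) and Upk1b from 35.2, 36.7 and 30.7 to 7.91, 9.78 and 8.03 TPM (-1.88), while Calb2 was listed at 0 and Muc16 and Wt1 stayed below 0.4 TPM. Their part in the falls of other genes was not tested. Of 20 leukocyte markers only 3 were tested, Lyz2 (20.3, 17.3 and 19.4 against 13.6, 10.8 and 9.49 TPM, -0.71) and Csf1r (-0.87) being lower and Cd68 not past the threshold (0.20, adjusted p = 0.290), and the summed level of the list was 30.4 to 33.7 TPM with Scr and 20.1 to 24.3 TPM with siKlf4. Endothelial markers summed to 21.998 to 26.7 TPM and 21.3 to 24.1 TPM, and epithelial markers to 24.04 to 40.1 TPM and 16.5 to 21.3 TPM, nearly all of it Krt19 (29.3, 38.4 and 21.6 against 14.5, 18.9 and 16.6 TPM), which the mesothelial list also holds.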

How the data were processed

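Bulk RNA-seq was made from sorted, cultured and transfected cells, as described in the study's methods. The authors trimmed the reads, aligned them with HISAT2 to mouse genome mm10 (equivalent to GRCm38) with GENCODE annotation, and estimated abundance with StringTie, so that the deposited values are TPM per gene and library. The submitters' processing notes also name DESeq2, and no authors' comparison was used here. The versions of HISAT2 and StringTie and the read count of each library are not given in the sources used here.

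All 6 PDGFR-β+ columns were used, 3 per group, with groups taken from the labels. The study's supplement describes the 3 libraries of a group as independent experiments, and the labels do not say whether these were separate cultures or animals, so p-values measure the spread between these libraries. Genes whose mean reached 1 TPM were fitted on log2(TPM + 1) with limma (version 3.58.1 in R 4.3.3, empirical Bayes moderation with a mean-variance trend, two-sided), and p-values were Benjamini-Hochberg adjusted over all genes tested, with a threshold of 0.05. The minimum mean was taken over the 6 libraries, so a gene near 0 in 1 group could pass through the other group alone. An exact permutation test of 3 against 3 libraries cannot go below p = 0.1. The cell type difference was the interaction term of limma over the 12 libraries, whose 2 tables the authors processed in the same way but deposited apart. The pipeline was tested on simulated data.

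Gene lists and the rule for named genes were chosen with earlier results of these data known. Named genes were those the study measured after silencing, the 10 largest rises and falls, the 5 largest rises and falls and the 2 most abundant members of each list, any member of a list of 22 or fewer genes, the 2 largest rises and falls of each gene family, and the 5 largest gains and losses in TPM. Genes named outside this rule were chosen after their values were seen. Lists are described by counts and medians, with no set test. Some genes are not reported here. Positions come from the GRCm38 annotation and upstream sequences from RefSeq (GRCm38.p6). Alternatives were another pseudocount (0.1), no filter or a minimum of 5 TPM, median-ratio scaling, no trend, a single fit of both cell types, a replicate block, and leaving out each library. A fit with only the numbered SMC libraries was added after seeing the data.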

Additional observations from a re-analysis of the deposited data

Results flagged for a closer look

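The response of 8 quantities differed between PDGFR-β+ cells and SMCs by the interaction term of limma, with Benjamini-Hochberg adjusted p-values over 13032 genes. Values are the log2 fold change in PDGFR-β+ cells minus that in SMCs, and each gene moved in its stated direction in 3 of 3 siKlf4 libraries of PDGFR-β+ cells relative to every Scr library. The difference was 2.84 for Isg15 (adjusted p = 0.0008), 3.10 for Ifit1 (adjusted p = 0.00062) and 3.21 for Irf7 (adjusted p = 0.00096). It was 0.97 for B2m (adjusted p = 0.0022) and 3.45 for Cxcl10 (adjusted p = 3.3e-05). Tgfb1 (-1.78, adjusted p = 2.5e-05) and Lox (-2.87, adjusted p = 1.9e-05) differed in the other direction. Tgfb1 fell in PDGFR-β+ cells and rose in SMCs. Of 146 interferon genes, 113 had a higher log2 fold change in PDGFR-β+ cells (background 18.5% of genes).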

How the results depend on the processing

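The number of genes higher with siKlf4 was 3461, 2639 with median-ratio scaling and 2587 to 3294 with 1 library left out. The number of genes lower with siKlf4 was 2098, 2977 and 1565 to 1999. Interferon genes stayed at 114 to 131 higher under every setting run, and matrix, TGF-β and PDGF counts, taken over each class as a whole, stayed within 1.5 times. Median-ratio scaling raised the lower interferon genes from 5 to 9. Translation and proteostasis genes higher went from 29 to 14 with that scaling, 16 with no filter, 18 with no trend and 12 (without siKlf4 replicate 2) to 37 (without Scr replicate 2) with 1 library left out, and those lower from 47 to 77 with that scaling. Metabolism genes higher went from 31 to 19 with that scaling and 20 (without siKlf4 replicate 2) to 28 with 1 library left out, and those lower from 39 to 69. The cause was not tested. Log2 fold changes near 0 that turned sign with median-ratio scaling were those of Ccl2 (-0.034), Loxl3 (-0.11), Pdgfra (-0.020) and Tyk2 (-0.0040), and with 1 library left out those of Ccl2 (-0.015 to 0.16), Col1a2 (-0.0076 to 0.19) and Loxl3 (-0.056 to 0.095), none of which passed the threshold in the fit as reported. Deviations of same-numbered libraries correlated at 0.073, -0.016 and 0.0043. With 3 libraries per group, these values cannot decide whether the replicate numbers pair the samples. With the replicate block 3486 genes were higher and 2155 lower, the calls of 5 of the 177 single genes checked changed (Fn1 and Socs3 passed as lower, Jak1 passed as higher, and Itgb3 and Pdgfc lost theirs), and not every library correlated best with its own number. In all, 181 of 1430 counts over single lists moved by over 1.5 times. Of 177 single log2 fold changes checked, 11 lost their call under at least 1 alternative. The unnumbered SMC libraries could be left out with 113 interferon genes still higher in PDGFR-β+ cells. TPM gives no depth, so how precisely low genes were measured is unknown.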

Other observations

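Families defined by their symbol were counted outside the classes of the report, against a background of 25.3% of genes higher and 15.3% lower. Schlafen genes, which interferons induce and which restrain translation and cell growth, were higher in 5 of 6 tested members and lower in none, and Slfn2 went from 8.93, 5.64 and 11.8 TPM with Scr to 80.4, 75.5 and 70.5 TPM with siKlf4 (3.01 on the log2 scale). TRIM genes, which encode ubiquitin ligases, were higher in 14 and lower in 3 of 37. HOX genes, which mark position along the body axis, were higher in 8 and lower in none of 17, with Hoxb7 at 21.2, 20.1 and 19.9 and 41.2, 42.6 and 40.4 TPM (0.99). C2H2 zinc finger genes named Zfp were higher in 114 and lower in 14 of 344, and with median-ratio scaling in 82 and 23. Replication-dependent histone genes were higher in 13 and lower in none of 29 (with median-ratio scaling 10 and 1).

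Protocadherin genes, which encode adhesion proteins, split. Pcdh17 went from 1.27, 1.01 and 1.28 to 17.7, 16.6 and 15.9 TPM (3.02), whereas 10 of 41 tested members were lower and 4 higher (with median-ratio scaling 14 and 2). Serpin genes were lower in 7 and higher in 5 of 19, with the acute-phase gene Serpina3n going from 172, 111 and 183 to 37.1, 16.9 and 18.1 TPM (-2.70). Solute carrier genes were higher in 44 and lower in 56 of 201 (with median-ratio scaling 35 and 75). Ephrins and their receptors were higher in 6 and lower in 1 of 16 (with median-ratio scaling 6 and 2).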
